A study of Arabidopsis thaliana with 6 samples.

Results

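The *ndhC*-*ndhK*-*ndhJ* operon is a group of 3 adjacent chloroplast genes on the same strand of the large single-copy region, and its members were chosen by gene name and position. All 3 were found among the 77 gene entries of the deposited table, which correspond to 73 RNAs after the copies in the inverted repeat were merged. The data are DO-RIP-Seq libraries, in which RNA is cross-linked to proteins with formaldehyde and shortened by a nuclease before the pieces that co-precipitate with a protein are sequenced. The 3 input libraries came from the mix of extract and antibody-coated beads, and the 3 pellet libraries came from the washed precipitate obtained with an antibody against CP31A. Every library was made from wild-type Columbia-0 seedlings of *Arabidopsis thaliana*, harvested at 14 days of age and grown in long days at 21 °C. The table holds protein-coding chloroplast genes alone, so that it offers no marker against which the labelled tissue could be checked, and libraries with non-specific immunoglobulins were not analysed here.

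The NDH complex of the thylakoid membrane, which is related to respiratory complex I, takes electrons from ferredoxin, hands them to plastoquinone and contributes to cyclic electron flow around photosystem I. NdhC belongs to its membrane arm, whereas NdhK, which binds an iron-sulfur cluster, and NdhJ belong to the peripheral arm that faces the stroma. CP31A is a chloroplast ribonucleoprotein, a nuclear-encoded protein with RNA recognition motifs that is imported into the chloroplast and is known for stabilizing mRNAs and supporting RNA editing. Genes of chloroplast operons are transcribed together, and the long transcripts are then cut and trimmed to smaller RNAs.

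In the chloroplast genome of TAIR10.1 (RefSeq, 154478 bp) the operon is read from the minus strand, from *ndhC* at its 5′ end to *ndhJ* at its 3′ end. *ndhC* lies from 50001 to 50363, *ndhK* from 49257 to 49934 and *ndhJ* from 48677 to 49153. Each gene is annotated as a single coding exon without an intron, encoding 120, 225 and 158 amino acids, respectively. The spacer between *ndhC* and *ndhK* is 66 nt long and that between *ndhK* and *ndhJ* is 103 nt long. The authors counted reads over each gene and 100 nt on each side of it, so that the counting windows of *ndhC* and *ndhK* share 134 nt and those of *ndhK* and *ndhJ* share 97 nt, whereas those of *ndhC* and *ndhJ* do not meet. Whether a read in a shared stretch was given to both genes is not given in the sources used here. The ends of the 3 reading frames are shown because the spacers and the flanks of the counting windows are measured from them. They are given as DNA letters of the coding strand from RefSeq (TAIR10.1), with the start codon or the stop codon in capitals.
*ndhC*, first 30 coding bases: ATGtttctgctttacgaatatgatattttc
*ndhC*, last 30 coding bases: tggcgaaaaggagcattggaatggtctTAG
*ndhK*, first 30 coding bases: ATGaattccattaagtttcccatacttgat
*ndhK*, last 30 coding bases: ccagtatcgtcccacgaattagtgaatTAG
*ndhJ*, first 30 coding bases: ATGcagggcactttgtccgtttggctagcc
*ndhJ*, last 30 coding bases: aatttttatgaaatacaagatgcttatTGA

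Values are given as TPM, a unit in which reads are corrected for window length and for the depth of the library. Reads were recovered from TPM, with 24240 to 73532 reads over all RNAs among the inputs and 251583 to 392294 among the pellets. Input 1 was the shallowest library, with 24 of the 73 RNAs below 20 reads. Enrichment is the log2 TPM of a pellet minus the log2 TPM of the input with its replicate number, as a mean of 3 such pairs. The limma fit covered all 73 RNAs and had the replicate as a block. Its p-values are two-sided and were adjusted by the Benjamini-Hochberg method. An RNA with an adjusted p under 0.05 and a log2 ratio above 0 is called enriched, and a target if the log2 ratio is also at least 1.

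The mRNAs of all 3 genes were more abundant in the CP31A pellets than in the inputs, by 4.38-fold for *ndhC*, 2.72-fold for *ndhK* and 2.42-fold for *ndhJ*. In each case every pellet lay above every input and the log2 ratio was above 0 in 3 of 3 pairs. All 3 were targets, beside a background of 34.2% targets and 49.3% enriched RNAs among all 73. Of these 73 RNAs, 63.0% had every pellet above every input and 67.1% a log2 ratio above 0 in every pair. Under the one-sided paired test of the methods, adjusted in the same way, they were targets as well (adjusted p = 0.0310, 0.0400 and 0.0405 for *ndhC*, *ndhK* and *ndhJ* by that paired test per gene), beside 27.4% enriched RNAs and 16.4% targets. TPM are shares of the length-corrected reads over protein-coding chloroplast genes in a library, so that RNAs of other kinds are outside them. A TPM level from seedlings does not tell fewer cells of a type from less RNA per cell. The input and the pellet of a pair came from the same mix, so that this limit concerns the levels. TPM also say nothing of the absolute amount of RNA in a pellet.

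The *ndhC* mRNA encodes the smallest of the 3 proteins, a hydrophobic subunit of the membrane arm. Its TPM was 1107, 928 and 1030 in inputs 1, 2 and 3 and 4124, 4834 and 4461 in pellets 1, 2 and 3. The lowest pellet exceeded the highest input by 3.73-fold, and the inputs differed little from each other. The log2 enrichment was 1.90, 2.38 and 2.11 in the 3 pairs, with a mean of 2.13 ± 0.24 (SD, n = 3 pairs). The standard error was 0.23, the 95% confidence interval 1.61 to 2.65 and the adjusted p = 0.000322 from limma. *ndhC* had rank 3 of the 73 RNAs, after *ndhI* and *ndhF*. It rested on 13, 30 and 36 reads among the inputs and 523, 833 and 899 among the pellets, and counting alone gives its mean enrichment a standard error of 0.18.

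The *ndhK* mRNA lies in the middle of the operon and encodes an iron-sulfur subunit. Its TPM was 1583, 1250 and 1266 among the inputs and 3605, 3673 and 3787 among the pellets. The pellets lay close together, and the highest input was that of replicate 1. The log2 enrichment was 1.19, 1.56 and 1.58 in the 3 pairs, with a mean of 1.44 ± 0.22 (SD, n = 3 pairs, 95% confidence interval 0.93 to 1.95; adjusted p = 0.00253 from limma), at rank 10. Reads numbered 29, 63 and 69 among the inputs and 713, 987 and 1190 among the pellets.

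The *ndhJ* mRNA, at the 3′ end, was the most abundant of the 3 in every library. Its TPM was 2761, 1827 and 2808 among the inputs and 5994, 5724 and 5839 among the pellets. Input 2 was low, which gave the pair of replicate 2 the highest ratio. The log2 enrichment was 1.12, 1.65 and 1.06, with a mean of 1.27 ± 0.32 (SD, n = 3 pairs, 95% confidence interval 0.74 to 1.81; adjusted p = 0.00363 from limma), at rank 15 and the lowest of the 11 *ndh* mRNAs. It had 39, 71 and 118 reads among the inputs and 914, 1186 and 1415 among the pellets.

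**Figure D1:**
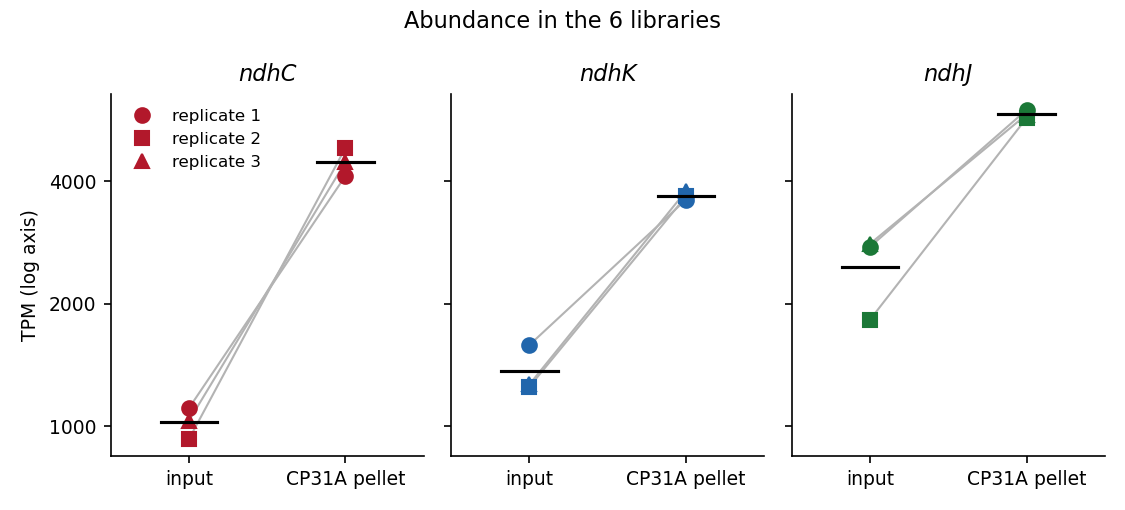
TPM (log axis) of *ndhC*, *ndhK* and *ndhJ* in the 3 inputs and the 3 CP31A pellets, where points are libraries, grey lines join an input with the pellet of its replicate and black bars are group means. Pellets lie above inputs for each mRNA, and the lines of *ndhC* are the steepest.

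The size of the enrichment depends on how the libraries are scaled, since on the TPM scale all 73 RNAs together had a median log2 enrichment of 0.71. After centring every library on its median, the median over RNAs was -0.12 and the log2 enrichment was 1.30 for *ndhC* (adjusted p = 0.00725 from limma), 0.61 for *ndhK* (adjusted p = 0.0733) and 0.44 for *ndhJ* (adjusted p = 0.176), so that only *ndhC* passed. On that scale 5.48% of the RNAs were enriched and 4.11% were targets. Rescaled without *psbA*, *rbcL* and *psbC*, the most abundant mRNAs of the input, *ndhC* had 1.65 (adjusted p = 0.0150 from limma) and *ndhK* had 0.96 (adjusted p = 0.0424) and both passed, while *ndhJ* had 0.79 (adjusted p = 0.0813) and did not. Here 6.85% of the RNAs were enriched and 4.11% were targets. Such a scaling moves all RNAs of a library alike and so leaves their ranks as they are.

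**Figure D2:**
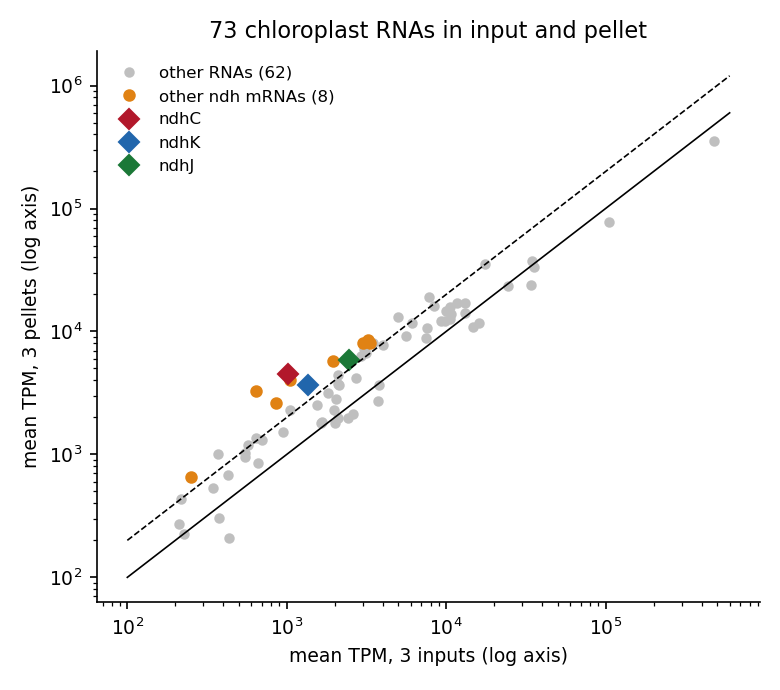
Mean TPM of 73 chloroplast RNAs in the 3 inputs (x) and the 3 pellets (y), both on log axes, where diamonds are *ndhC*, *ndhK* and *ndhJ*, orange points the other 8 *ndh* mRNAs and grey points the other 62 RNAs. The solid line marks equal TPM and the dashed line a 2-fold excess in the pellet, above which all 3 diamonds lie.

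The order of the mRNAs within the operon was not the same in inputs and pellets. In each of the 3 inputs *ndhC* had the lowest TPM, *ndhK* a higher one and *ndhJ* the highest. In each of the 3 pellets *ndhJ* was again the highest, but *ndhC* stood above *ndhK*. The TPM of *ndhK* was 1.43, 1.35 and 1.23 times that of *ndhC* in inputs 1, 2 and 3 and 0.87, 0.76 and 0.85 times that of *ndhC* in the pellets. The TPM of *ndhJ* was 2.40 ± 0.39 times that of *ndhC* among the inputs and 1.32 ± 0.13 times that of *ndhC* among the pellets (SD, n = 3 libraries). Neither ratio overlapped between inputs and pellets, which was also the case for 47.2% of the 53 gene pairs whose enrichment was compared. By contrast, the TPM of *ndhJ* over that of *ndhK* was 1.81 ± 0.38 among the inputs and 1.59 ± 0.07 among the pellets (SD, n = 3 libraries), and here the values overlapped. Of the TPM summed over the operon, *ndhC* held 21.2% ± 1.69 among the inputs and 31.9% ± 1.97 among the pellets, *ndhK* 28.4% ± 3.26 and 26.3% ± 0.54, and *ndhJ* 50.4% ± 4.70 and 41.8% ± 1.75 (SD, n = 3 libraries).

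**Figure D3:**
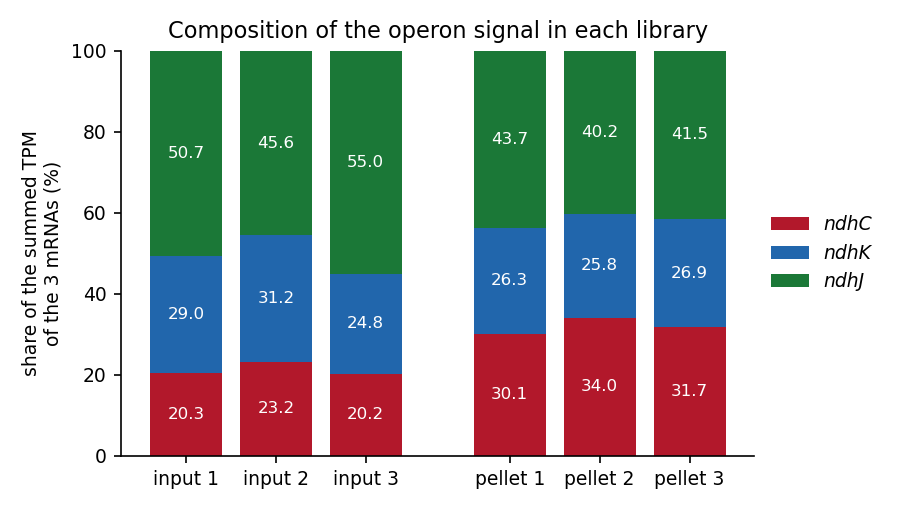
Share of the TPM summed over *ndhC*, *ndhK* and *ndhJ* held by each mRNA (%, stacked bars with the values printed) in the 3 inputs and the 3 pellets. The share of *ndhC* is 20.2% to 23.2% among the inputs and 30.1% to 34.0% among the pellets.

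Such differences within a library do not depend on how libraries are scaled. They were tested with limma over 53 pairs of genes, comprising 52 pairs of neighbours on the same strand along the chloroplast sequence and the ends of this operon. Neighbours were taken among the RNAs analysed, so that genes absent from the deposited table were passed over. The neighbours were unlike each other, with gaps of up to 2848 nt and counting windows that shared up to 253 nt or none. After adjustment, 3.77% of the 53 pairs differed in enrichment. The log2 enrichment of *ndhC* exceeded that of *ndhK* by 0.71, 0.83 and 0.53 in the 3 pairs, with a mean of 0.69 ± 0.15 (SD, n = 3 pairs, 95% confidence interval 0.14 to 1.24; adjusted p = 0.0830 from limma). It exceeded that of *ndhJ* by 0.78, 0.73 and 1.06, with a mean of 0.86 ± 0.18 (SD, n = 3 pairs, 95% confidence interval 0.30 to 1.41; adjusted p = 0.0616 from limma). Both differences had the same sign in 3 of 3 pairs, as did those of 50.9% of the 53 gene pairs, and neither passed the adjusted threshold in the fit with the replicate as a block. Without the block both passed (adjusted p = 0.0231 for each from limma), when 22.6% of the pairs passed. *ndhK* exceeded *ndhJ* by 0.17 ± 0.32 (SD, n = 3 pairs, 95% confidence interval -0.43 to 0.76; adjusted p = 0.723 from limma), with values of 0.07, -0.09 and 0.52 that lie on both sides of 0. Over the 52 pairs of neighbours the absolute difference had a median of 0.45, and it was smaller than that of *ndhC* and *ndhK* in 32 of them and smaller than that of *ndhK* and *ndhJ* in 15.

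The genes on either side of the operon did not pass as enriched. Upstream of *ndhC*, beyond tRNA genes and 1901 nt away, lies *atpE*, which encodes the epsilon subunit of the ATP synthase and overlaps *atpB*, the gene for the beta subunit. The TPM of *atpE* was 12481, 6659 and 10219 among the inputs and 11170, 12436 and 12738 among the pellets, so that the groups overlapped (log2 enrichment 0.35 ± 0.53, SD, n = 3 pairs, adjusted p = 0.283 from limma). For *atpB* the 3 pairs gave -1.37, 0.57 and 0.13, a mean of -0.22 ± 1.02 that did not pass (adjusted p = 0.631 in the limma fit). Downstream of *ndhJ*, at a distance of 2848 nt, lies *rps4*, which encodes a protein of the small ribosomal subunit. The TPM of *rps4* was 713, 562 and 720 among the inputs and 826, 742 and 971 among the pellets. Every pellet thus lay above every input, by 1.03-fold at the closest, and the log2 enrichment was above 0 in 3 of 3 pairs. Its mean of 0.35 ± 0.12 did not pass (adjusted p = 0.204 in the limma fit).

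The step in enrichment from *atpE* to *ndhC* was the largest of the 52 between neighbours. The log2 enrichment of *atpE* lay below that of *ndhC* in 3 of 3 pairs, with a mean difference of -1.78 ± 0.29 (SD, n = 3 pairs, 95% confidence interval -2.36 to -1.19; adjusted p = 0.0114 from limma). This difference did not pass without replicate 3 (-1.77, adjusted p = 0.196 from limma). The input TPM of *atpE* was 9786 ± 2935, against 1022 ± 89.5 for *ndhC* (SD, n = 3 libraries). At the other end, *ndhJ* stood above *rps4* by 0.91, 1.25 and 0.62, with a mean of 0.93 ± 0.31 (SD, n = 3 pairs, 95% confidence interval 0.33 to 1.52). This step did not pass with the block (adjusted p = 0.0616 from limma) and passed without it (adjusted p = 0.0166 from limma).

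**Figure D4:**
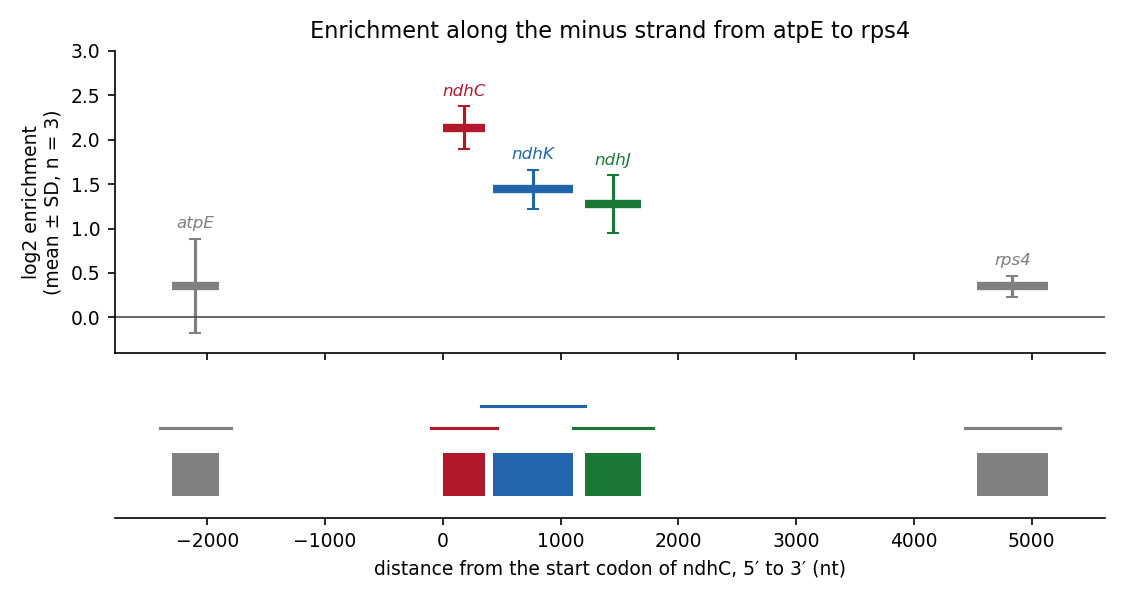
Log2 enrichment (top, where thick bars span the genes, error bars are the SD over 3 pairs) and gene positions to scale (bottom, where boxes are genes, thin lines the counting windows with 100 nt on each side) along the minus strand, against the distance from the start codon of *ndhC* in nt. The 3 *ndh* genes stand between 1.27 and 2.13, and *atpE* and *rps4* both stand at 0.35.

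The pathway list comprised the 11 chloroplast genes *ndhA* to *ndhK*, and all 11 were targets, beside 34.2% of all 73 RNAs, with a median log2 enrichment of 1.57 against 0.71 for all 73 RNAs. With library medians at 0, or rescaled without *psbA*, *rbcL* and *psbC*, 3 of the 11 were targets. On each of these scales 4.11% of all 73 RNAs were targets, which is 3 RNAs. On the TPM scale the other 8 *ndh* mRNAs ran from 1.40 for *ndhB* to 2.37 for *ndhI*. On this scale *ndhC* therefore lay within the range of the other 8, *ndhK* near its lower end and *ndhJ* below it. The mean log2 enrichment over the 3 mRNAs of the operon was 1.62 ± 0.23, against 1.70 ± 0.46 over the 6 *ndh* mRNAs from *ndhH* to *ndhD* in the small single-copy region (SD, n = 3 pairs). The difference between these means changed sign between pairs, at -0.81, 0.31 and 0.26 for replicates 1, 2 and 3, and its mean of -0.08 ± 0.63 (SD, n = 3 pairs) was smaller than its spread. *ndhB*, in the inverted repeat, had 2.21, 1.13 and 0.86, and *ndhF*, in the small single-copy region, had 3.54, 1.36 and 1.84.

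Input 1 stood above the mean of the other inputs for the operon and below it for the other *ndh* mRNAs. Relative to the mean log2 TPM of inputs 2 and 3, all 8 other *ndh* mRNAs were low in input 1, by log2 differences from -2.15 for *ndhF* to -0.32 for *ndhA*. The mRNAs of *ndhC*, *ndhK* and *ndhJ* lay above it, by 0.18, 0.33 and 0.29. Over all 73 RNAs, 41 lay above it and the median difference was 0.17. These counts were not tested. Accordingly, the mean log2 enrichment was lower in the operon than in the other 8 *ndh* mRNAs in the pair of replicate 1 (1.40 and 2.38) and higher in the pairs of replicates 2 (1.86 and 1.48) and 3 (1.58 and 1.33). Summed TPM of the operon was 5450, 4004 and 5104 in the inputs, while that of the other 8 mRNAs was 7656, 16715 and 18631. In the pellets the sums were 13723, 14230 and 14087 for the operon and 38325, 42367 and 42147 for the other 8. Input 1 had the fewest reads, 81 over the operon and 252 over the other 8 mRNAs, and the part of depth in this contrast was not tested. The SD of the log2 enrichment over pairs was 0.22 to 0.32 for the 3 mRNAs, against 0.08 to 1.15 (median 0.58) for the other 8 and a median of 0.35 for all RNAs.

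**Figure D5:**
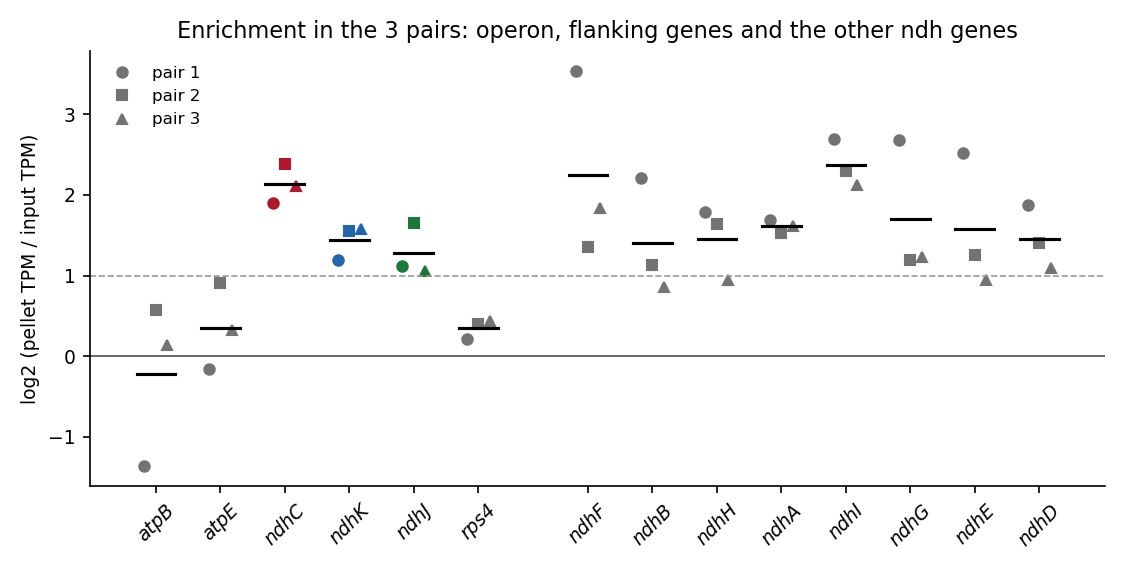
Log2 ratio of pellet TPM over input TPM in the pairs of replicates 1, 2 and 3 (circles, squares and triangles, with black bars are means) for *ndhC*, *ndhK* and *ndhJ* (coloured), their flanking genes *atpB*, *atpE* and *rps4*, and the other 8 *ndh* genes (grey), and the dashed line marks a log2 ratio of 1. In the pair of replicate 1 the values of *ndhK* and *ndhJ*, 1.19 and 1.12, are lower than those of all other *ndh* genes.

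Leaving out a replicate kept all 3 mRNAs as targets. Without replicate 1, *ndhC* had the highest log2 enrichment of the 73 RNAs at 2.25, with *ndhK* at 1.57 (rank 6) and *ndhJ* at 1.35 (rank 8). Without replicate 2 they had 2.01, 1.38 and 1.09 (ranks 3, 16 and 21), and without replicate 3 they had 2.14, 1.37 and 1.38 (ranks 3, 16 and 15). In these smaller fits limma gave every RNA the same standard error, so that such calls follow the size of the mean and do not measure the spread between the remaining pairs.

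The RNAs outside the operon with the most similar enrichment over the 3 pairs were found by the root mean square of the differences in log2 enrichment. For *ndhC* they were *ndhI* at 0.46, *ndhA* at 0.58 and *rpoA*, which encodes the alpha subunit of the plastid RNA polymerase, at 0.73. For *ndhK* they were *rpoA* at 0.17, *ndhA* at 0.29 and *rps2*, for the small ribosomal subunit, at 0.41. For *ndhJ* they included *psbN*, for a protein that acts in photosystem II assembly, at 0.34 and *psbB*, for the CP47 antenna protein of photosystem II, at 0.38. No RNA was thus as close to *ndhC* as *rpoA* was to *ndhK*. These distances describe 3 pairs of libraries and carry no test.

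The 3 genes also differed in base composition, which the choice of members did not use. The counting window of *ndhC* had 38.2% U and 34.8% GC, that of *ndhK* 30.3% U and 35.9% GC and that of *ndhJ* 29.7% U and 36.9% GC. Of the 73 RNAs, 10 had a higher share of U than *ndhC*, 53 than *ndhK* and 57 than *ndhJ*, and the median over all of them was 32.9%. Windows with a lower GC content numbered 39, 44 and 50, respectively. The share of U and the enrichment both fell from *ndhC* to *ndhJ*, and the order was mixed among the other *ndh* genes. *ndhF* (40.3% U, log2 enrichment 2.25) had more U and a higher enrichment than *ndhC*. Less U and a lower enrichment than *ndhC* were found for *ndhA* (34.4% U, 1.61), *ndhB* (33.0% U, 1.40) and *ndhH* (31.5% U, 1.46). By contrast, *ndhI* had less U (35.7%) and a higher enrichment (2.37). *ndhG* had the highest share of U of all 73 RNAs (40.8%) at a log2 enrichment of 1.70, and *ndhD* (39.5% U, log2 enrichment 1.46) and *ndhE* (38.5% U, log2 enrichment 1.57) had more U and a lower enrichment than *ndhC*. No test was made.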

How the data were processed

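DO-RIP-Seq was analysed in 3 input and 3 CP31A pellet libraries. Trim Galore 0.6.4 served the authors for trimming, STAR 2.5.3 for mapping to TAIR10 and UMI-tools 0.5.4 for removing duplicates by molecular identifiers (methods and submitters' processing notes). Reads were counted on the coding strand with featureCounts, introns and 100 nt on each side included. The authors dropped genes of low read number, normalized by window length and depth, and deposited TPM. The deposited table also holds log2 TPM, which differed from recomputed log2 values by at most 3.55e-15, and the authors' mean log2 enrichment and p-values, which were not used. The deposited p-values come from a one-sided paired test per gene.

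TPM of inverted repeat copies were averaged. Reads were recovered as TPM times window length over a factor fitted per library, the smallest that gave whole numbers (tolerance 0.0001 reads, 98.7% of 462 values with annotated windows, *psbC* needed a window of 1586 nt). Read totals count each repeat gene by its copy listed first, and counting errors cover counting alone. Fits used limma 3.58.1 (lmFit, eBayes) on R 4.3.3. No pseudocount was added to TPM before log2, and the replicate was a block, as the methods pair each pellet with the input from the same mix. Deviations from group means correlated at 0.17, 0.30 and -0.03 within replicate numbers 1, 2 and 3, and at -0.27 to 0.19 between different numbers. The study calls the replicates biological. Tables were handled with Python 3.11.15 and pandas 2.3.3. On simulated data the fits were checked for a small mean error and, in the fit of RNAs, for the right sign. The simulated pairs had a shared spread, unlike the real pairs, and no limit was set on missed or false calls.

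The members, gene lists and tests were chosen with earlier results of these data known. Genes named are the 3 members, the 11 *ndh* genes, the flanking *rps4*, *atpE* and *atpB*, the 3 RNAs nearest in enrichment to each member, and *psbA*, *rbcL* and *psbC*. An RNA that this rule names is not reported here. Alternatives were no block, each replicate left out, pseudocounts of 1 and 100 TPM, a filter on the 25% of RNAs with the lowest TPM, rescaled libraries, unmerged copies, weights from reads (voom in limma) and the methods' test.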

Additional observations from a re-analysis of the deposited data

How the results depend on the processing

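The log2 enrichment of *ndhC* passed under all 12 alternatives tried. Without the replicate block all 3 mRNAs of the operon passed. That of *ndhK* did not pass with library medians set to 0 (0.61), and that of *ndhJ* did not pass with library medians set to 0 (0.44) or rescaled without *psbA*, *rbcL* and *psbC* (0.79). Their mean moved from 1.62 to 0.79 and 1.13 under these scalings. With a replicate left out, *ndhC* ran from 2.01 to 2.25, *ndhK* from 1.37 to 1.57 and *ndhJ* from 1.09 to 1.38, and all passed. Enriched RNAs numbered 36, and 4 with library medians set to 0, 5 rescaled, 20 under the methods' one-sided paired test after adjustment, and 21 to 58 with a replicate left out. Targets numbered 25, and 3 under each scaling and 12 under the methods' test, which included all 3 mRNAs of the operon.

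The differences of 0.69 between *ndhC* and *ndhK*, 0.86 between *ndhC* and *ndhJ* and 0.93 between *ndhJ* and *rps4* did not pass in the main fit. They passed without the replicate block, and with the block when replicate 1 was left out. Without replicate 1 or 2, limma gave these pairs a shared standard error (0.18 and 0.51). Such calls follow the size of the difference and do not measure its spread. With a replicate left out these differences ran from 0.62 to 0.77, 0.76 to 0.92 and 0.77 to 1.08. The difference between *ndhK* and *ndhJ* ran from -0.012 to 0.30 and changed sign without replicate 3 (-0.012). That of *atpE* and *ndhC* ran from -1.93 to -1.64. Pairs of genes that differed numbered 2, and 12 without the block, 4 with a pseudocount of 100 TPM, 4 with weights from reads, and 0 to 26 with a replicate left out. The causes were not tested. Of the 3 mRNAs of the operon, *ndhC* had the fewest reads, with 13 in input 1.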
